A study of Homo sapiens with 12 samples.

Results

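786-O is a human cell line from a clear cell renal carcinoma. RNA-seq compared 3 libraries of 786-O cells with CBX7 silenced (shCBX7) with 3 libraries of 786-O cells given a control hairpin (sh control). Both arms were grown in RPMI-1640 with fetal bovine serum, no drug treatment is listed for either, and the columns of the value table name the silenced arm with "si" rather than "sh". The labels give 1 hairpin name for the silenced arm, and nothing says whether it was a clone or a pool, nor whether its 3 libraries were grown as separate cultures, so every p-value rests on library-to-library spread that may be purely technical. The genes described are all those with a mean of at least 0.5 FPKM (fragments per kilobase of gene, scaled to a total per library) over the 6 libraries: 13220 of 58735 listed genes, of which 11077 are protein-coding. Just inside that minimum lay LINC01176 at a mean of 0.5001 FPKM, and just outside it SHLD3 at 0.4993 FPKM. Another 14557 genes had a value above 0 but stayed under the minimum, and 30958 were at 0 in every library. The series as a whole holds 12 libraries, with the same 2 arms in the bladder cancer line 5637, and was titled after EZH2, CBX7, FGFR3 and cisplatin sensitivity.

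Polycomb proteins keep developmental genes silent through marks on histones. Polycomb repressive complex 2 (PRC2), with the methyltransferase EZH2, EED and SUZ12, methylates histone H3 at lysine 27, and canonical Polycomb repressive complex 1 (PRC1) reads that mark through a chromobox (CBX) subunit and ubiquitinates histone H2A through RING1 or RNF2. CBX7 is 1 of several interchangeable chromobox subunits, so cells that lose it may still hold PRC1 with other CBX proteins, and its textbook targets include HOX genes and the CDKN2A locus. In renal cancer 786-O is a standard line without a working VHL, in which the hypoxia factor HIF-2, encoded by EPAS1, is constitutively active.

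The libraries held 16384151 to 18868874 reads in listed genes. The correlation of log values between libraries was 0.991 to 0.993 inside each arm, and 0.964 to 0.965 across the arms. Mitochondrial genes took 2.32% to 2.81% of reads. More genes had a value above 0 in the shCBX7 libraries (21175 to 22150) than in the controls (20654 to 20964). The cell type was checked by markers. The renal transcription factor PAX8 was expressed, at 37.8 FPKM in control and 30.3 FPKM in shCBX7 libraries, and the epithelial keratin KRT8 at 125 FPKM in control and 169.7 FPKM in shCBX7 libraries, while the proximal tubule genes CUBN, LRP2, SLC34A1 and AQP1 stayed under the minimum. Of 14 leukocyte markers, 10 stayed under the minimum, with PTPRC and CD3E at 0 in every library, and the summed level of the list was 19.3 to 23.4 FPKM in control and 12.7 to 15.1 FPKM in shCBX7 libraries, most of it LAPTM5. None of 9 endothelial markers reached the minimum (sums 0.874 to 1.10 against 1.13 to 1.33 FPKM, CDH5 and EMCN at 0), and of 13 fibroblast and smooth muscle markers LUM alone did (sums 2.87 to 3.12 against 3.33 to 3.86 FPKM, MYOCD at 0). For urothelium and 5637, 2 of 15 markers were tested, ELF3 and PPARG, and both were higher in shCBX7, ELF3 with a call lost under 4 of the other settings (sums 13.5 to 15.2 against 19.9 to 22.7 FPKM), while KRT5, KRT14, DSG3 and UPK3A were at 0 in every library. The part of these markers in the results below was not tested. In bulk RNA, fewer cells of a kind and less RNA per cell cannot be told apart.

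CBX7 itself was lower in every shCBX7 library, by a modest amount. It measured 1.63, 1.75 and 1.49 FPKM in the control libraries and 1.01, 0.892 and 1.07 FPKM after silencing, so the arms did not overlap and 61.0% of the control mean remained. On the scale used for all tests here, log2(FPKM + 1), on which low genes appear to change less than their FPKM do, the difference was -0.40 (SE 0.076, limma adjusted p = 0.00364, Benjamini-Hochberg over all tested genes). EZH2, whose product writes the mark that CBX7 reads, gave 9.26, 10.8 and 10.9 FPKM in the control libraries and 9.49, 9.22 and 9.04 FPKM after silencing. Its arms overlapped and it did not pass the test (-0.14, limma adjusted p = 0.124), except when control library 1 was left out (-0.21, limma adjusted p = 0.0102). FGFR3, the receptor named in the series title, gave 1.19, 0.911 and 0.737 FPKM in the control libraries and 1.21, 1.47 and 1.53 FPKM after silencing, a low level in both arms with no overlap. Its difference of 0.31 (SE 0.11) passed narrowly (limma adjusted p = 0.0431), and the call was lost without control library 2 or 3, without shCBX7 library 2 or 3 (0.23 to 0.40 over the left-out libraries), without the low-value minimum, with quantile normalization and with the replicate number as a block (limma adjusted p = 0.0828). Exact two-sided permutation tests gave p = 0.1 for CBX7 and FGFR3, the smallest that 3 against 3 libraries allow, and p = 0.2 for EZH2. CBX7 lies on chromosome 22 at 39120167 to 39152674, EZH2 on chromosome 7 at 148807383 to 148884321 and FGFR3 on chromosome 4 at 1793293 to 1808872 (GRCh38).

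At a limma adjusted p of 0.05, 6736 of the tested genes (51.0%) were called, 3271 higher (24.7%) and 3465 lower (26.2%) after silencing. The arms did not overlap in 7966 genes (60.3%). Most of the differences were small: the median change was -0.01 and the median absolute change 0.24 on the log2 scale, and 273 called genes (2.07%) were at least 2-fold higher and 191 (1.44%) at least 2-fold lower on that scale. With so many genes called, a count within a gene group has to be read against these shares, and group medians against -0.01. A gene whose mean lay under the minimum in 1 arm was tested only through the other arm, so its direction was fixed beforehand. Examples named below are CCL7, FGF1, GBP5, EGR1, EDN2 and CDH16. Below, a group is described by how many of its tested members were called higher or lower, and a pair of values joined by "to" in brackets is the control mean and the shCBX7 mean. The groups were drawn up with earlier results of these data known, so their counts describe and do not test.

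**Figure D1:**
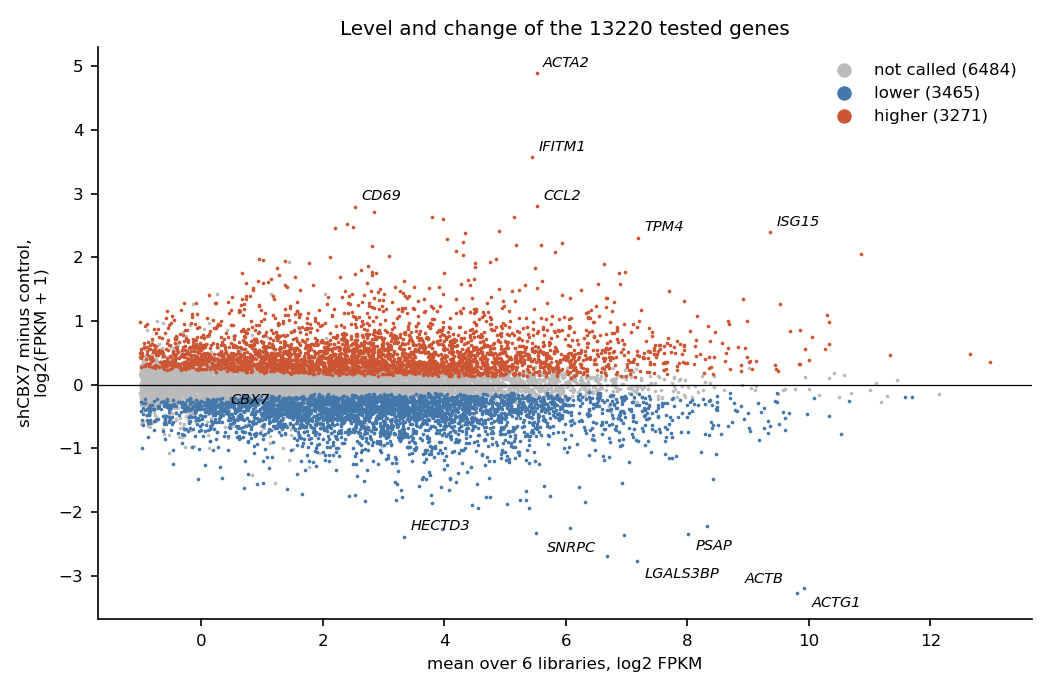
Each point is 1 of the 13220 tested genes, placed by its mean level over the 6 libraries (log2 FPKM, horizontal) and its change on the log2(FPKM + 1) scale, shCBX7 minus control (vertical), and coloured by its call. The called genes lie close to 0 on both sides, and a small number stand far out, with ACTA2 at 4.90 and ACTB at -3.27.

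On the log2(FPKM + 1) scale the largest rise among called genes was in ACTA2 and the largest falls were in ACTB and ACTG1, all of them actins. Of 6 actin isoform genes 3 reached the minimum. ACTB and ACTG1, the cytoplasmic beta- and gamma-actins found in nearly every cell, fell together in every library, from 1.09% to 1.10% of all reads in the controls to 0.115% to 0.118% after silencing. ACTB measured 1633, 1585 and 1620.2 FPKM in the control libraries and 169, 163 and 166 FPKM after silencing (-3.27, limma adjusted p = 3.51e-08). ACTA2, the alpha-actin of smooth muscle and of contractile fibroblasts, measured 2.01, 2.25 and 1.87 FPKM in the control libraries and 93.1, 91.3 and 84.6 FPKM after silencing (4.90, limma adjusted p = 3.51e-08). All of its shCBX7 values lay far above the controls and stayed below the FPKM of either cytoplasmic actin in the same libraries. The defining smooth muscle genes MYH11, DES, CNN1, LMOD1 and MYOCD were all under the minimum. ACTA2-AS1, annotated on the opposite strand within the same locus, was under the minimum, with 0 reads in the controls and 0.464, 0.565 and 0.582 FPKM after silencing. Actin genes share sequence, ACTA2 overlaps FAS and ACTA2-AS1, and the strand setting of the counting is not given in the sources used here, so some reads may be credited to the wrong one of these genes.

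Contractile partners of actin mostly rose. Of 28 tested contractile and stress fibre proteins (33 listed), 17 were higher and 6 lower (median 0.28). TPM4, a tropomyosin that winds along filaments, measured 47.8, 49.9 and 47.3 FPKM in the control libraries and 249, 248 and 234 FPKM after silencing, a 5.04-fold rise with no overlap (limma adjusted p = 2.25e-07). MYL9, the regulatory light chain of non-muscle and smooth muscle myosin, measured 17.3, 16.1 and 16.8 FPKM in the control libraries and 78.7, 79.8 and 80.5 FPKM after silencing and rose in the same way (limma adjusted p = 2.25e-07). CALD1, caldesmon, rose from 14.7 ± 0.67 to 39.8 ± 0.93 FPKM (mean ± SD, n = 3 in each arm, as in all values written this way). The PDZ-LIM scaffolds PDLIM5 (5.76 to 14.6 FPKM) and PDLIM7 (43.3 to 89.7 FPKM) rose too, while PDLIM1, of the same family, was among the largest falls (208 to 39.8 FPKM). TLN1, talin, which links integrins to actin, measured 35.8, 34.9 and 35.0 FPKM in the control libraries and 8.56, 8.70 and 8.99 FPKM after silencing and fell to 24.8% of its control mean (limma adjusted p = 2.73e-07), and ZYX, zyxin, fell from 38.2 ± 1.9 to 23.1 ± 1.0 FPKM. VCL, vinculin, did not pass (49.1 to 45.5 FPKM).

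Among 29 genes of actin monomer binding and filament turnover, 14 rose and 6 fell (median 0.20). Subunits of the Arp2/3 complex, which nucleates branched filaments, were split: ARPC5 (21.4 to 40.6 FPKM), ARPC1A (20.8 to 40.5 FPKM) and ARPC2 (89.9 to 129 FPKM) rose, and ARPC3 (59.2 to 58.0 FPKM) and ARPC4 (18.2 to 19.0 FPKM) did not pass. WDR1, CFL1 and DSTN, which take filaments apart, rose, WDR1 from 99.4 ± 5.1 to 188 ± 7.0 FPKM, and the monomer-binding thymosin TMSB4X rose from 992 ± 14 to 1464 ± 30.5 FPKM. DIAPH1, a formin that extends unbranched filaments, fell from 9.03 ± 0.73 to 3.41 ± 0.20 FPKM. Serum response factor (SRF) with its MRTF cofactors senses the pool of free actin and drives many of these genes. Of 18 tested SRF and MRTF factors and targets, 12 were higher and 4 lower (median 0.57). SRF rose from 22.4 ± 0.63 to 34.1 ± 2.4 FPKM, the target ANKRD1 from 19.2 ± 0.73 to 70.7 ± 2.3 FPKM and CYR61 from 214 ± 2.1 to 349.6 ± 1.6 FPKM, while MRTFA (4.51 to 3.20 FPKM), FHL2 (52.2 to 30.3 FPKM) and EGR1 (2.96 to 0.285 FPKM) fell. Targets of YAP and TEAD, which answer to tension, were 6 higher and 6 lower of 17, with a median whose sign changed with the scaling, and of 13 tubulins 1 was higher (TUBB2A) and 3 were lower, TUBB4B among them (767 to 515 FPKM).

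The RefSeq promoters (GRCh38.p14, 250 bases before to 50 after the annotated start, 9623 tested genes matched) were searched on both strands for the CArG box, the element that SRF binds. It was present in 109 of 9623 promoters (1.13%), in 4 of 25 contractile genes with a promoter (CNN2, FLNA, MYLK and TPM4), in 11 of the 183 called genes that were at least 2-fold higher and had a promoter (6.01%), and in 4 of the 141 at least 2-fold lower (2.84%). The stretches below are shown because they come from genes that moved in opposite directions, with the box in capitals, 5′ to 3′ on the gene's strand: ACTG1 at chr17:81512859-81512918 (minus strand), TPM4 at chr19:16067340-16067399 (plus strand) and FHL2 at chr2:105438580-105438639 (minus strand).
ACTG1: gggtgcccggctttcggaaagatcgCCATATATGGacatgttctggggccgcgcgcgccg
TPM4: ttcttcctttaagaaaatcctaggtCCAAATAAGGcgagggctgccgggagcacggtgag
FHL2: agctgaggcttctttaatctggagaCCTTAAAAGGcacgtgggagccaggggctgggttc
ACTG1 and FHL2 fell and TPM4 rose with a box in the same window. A match is a description of the letters and says nothing about binding in these cells.

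**Figure D2:**
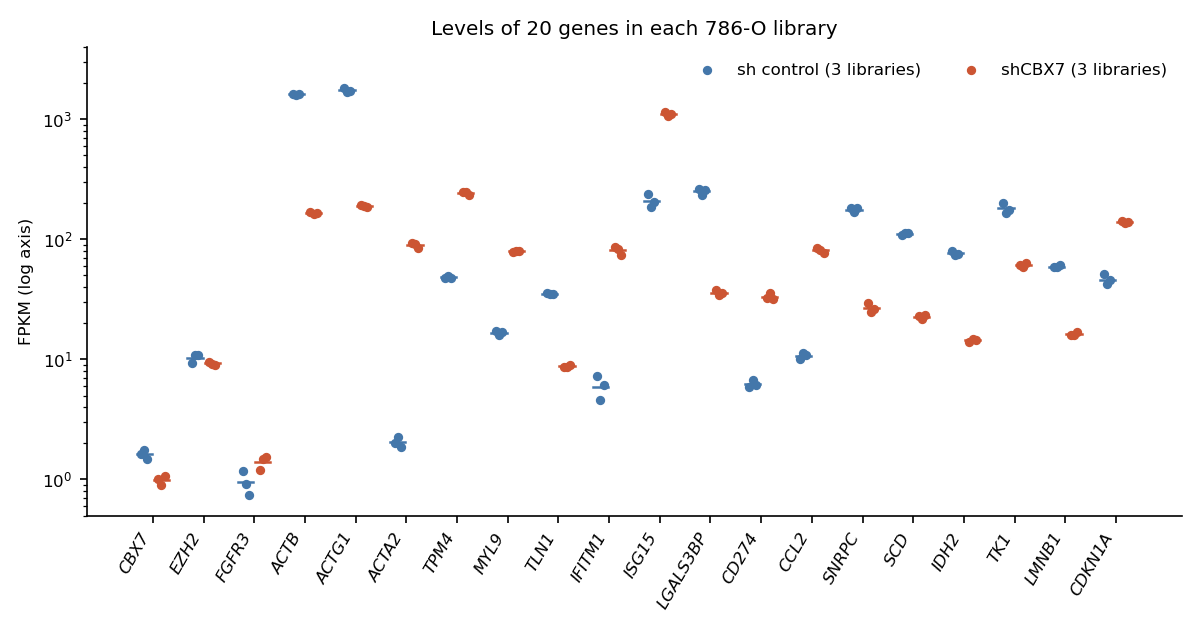
Levels of 20 genes in each 786-O library (FPKM, log axis), with 3 points and a mean bar per arm. The arms separate for every gene shown except EZH2, ACTB and ACTG1 fall by about the same distance, and ACTA2 rises from 2.05 to 89.7 FPKM.

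Interferon-stimulated effectors were the list with the most uniform rise. Type I and type III interferons, or double-stranded RNA sensed inside the cell, turn on a shared set of antiviral genes through the factor ISGF3 at a promoter element called the ISRE. Of 56 tested effectors of this response (59 listed), 51 were higher and 2 lower after silencing (median 1.14), and 34 were at least 2-fold higher. ISG15, a ubiquitin-like modifier, measured 239, 187 and 206 FPKM in the control libraries and 1152, 1069 and 1101 FPKM after silencing, with every shCBX7 value above every control, a 5.26-fold rise (limma log2 change 2.40, SE 0.087, adjusted p = 1.86e-06). IFI6, a mitochondrial protein of the response and the most abundant member, measured 808, 673 and 685 FPKM in the control libraries and 2879, 2960.1 and 3095 FPKM after silencing. IFI27 measured 21.7, 20.7 and 20.7 FPKM in the control libraries and 89.1, 94.5 and 93.0 FPKM after silencing. IFITM1, of a family that blocks virus entry and whose members share sequence, measured 7.21, 4.55 and 6.06 FPKM in the control libraries and 86.8, 82.8 and 73.7 FPKM after silencing, 13.7 times the control mean. On the log2(FPKM + 1) scale its change of 3.58 was the largest rise after that of ACTA2 among called genes. None of these genes overlapped between arms, and of ISG15, IFI6, IFI27 and IFITM1 the last varied most among its controls, relative to its mean.

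The exceptions were few. LGALS3BP, a secreted glycoprotein that binds galectins, measured 263, 234 and 256 FPKM in the control libraries and 37.9, 34.1 and 35.9 FPKM after silencing and fell to 14.3% of the control mean (limma log2 change -2.77, SE 0.061, adjusted p = 2.30e-07). On the log2(FPKM + 1) scale this was the largest fall among called genes after those of the cytoplasmic actins. APOBEC3G fell slightly (2.80 to 2.22 FPKM), a call that was lost under 6 of the other settings, and TRIM25 (11.3 to 10.5 FPKM), APOBEC3F (2.01 to 1.91 FPKM) and SHISA5 (66.4 to 65.9 FPKM) did not pass. The other effectors rose across a wide range of levels. The OAS enzymes, which make the activator of RNase L, rose in OAS1 (8.83 to 51.1 FPKM), OAS2 (3.51 to 11.8 FPKM), OAS3 (16.5 to 28.5 FPKM) and OASL (15.1 to 28.6 FPKM). The IFIT proteins, which bind foreign RNA ends, rose in IFIT1 (8.96 to 36.5 FPKM), IFIT2 (6.43 to 17.4 FPKM), IFIT3 (23.3 to 74.6 FPKM) and IFIT5 (5.996 to 9.34 FPKM). Guanylate-binding proteins rose in GBP1 (11.1 to 46.7 FPKM), GBP2 (1.76 to 7.93 FPKM), GBP3 (13.0 to 30.0 FPKM), GBP4 (3.12 to 5.12 FPKM) and GBP5 (0.479 to 2.33 FPKM), a set that interferon-gamma induces strongly.

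The core of the ISRE was searched as GAAANNGAA on both strands, where overlapping matches count. It was present in 628 of 9623 promoters of tested genes (6.53%), in 31 of the 45 effectors with a promoter (68.9%) and in 10 of 18 genes of the antigen presentation list (55.6%), which also holds checkpoint ligands such as CD274. Of the 31 effectors with a match 30 rose (median 1.10), and of the 14 without one 12 rose (median 1.16), so members with and without the letters in this window moved by similar amounts. The stretches below hold the core in capitals, 5′ to 3′ on the gene's strand, and are shown because they belong to the genes described: ISG15 at chr1:1013359-1013429, IFIT1 at chr10:89392483-89392554, IFITM1 at chr11:313975-314042, IFI27 at chr14:94110604-94110674 and CD274 at chr9:5450310-5450374 (all plus strand), and IFI6 at chr1:27672252-27672373 and LGALS3BP at chr17:78979948-78980006 (both minus strand).
ISG15: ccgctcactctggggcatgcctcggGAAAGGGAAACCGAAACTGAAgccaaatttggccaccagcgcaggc
IFI6: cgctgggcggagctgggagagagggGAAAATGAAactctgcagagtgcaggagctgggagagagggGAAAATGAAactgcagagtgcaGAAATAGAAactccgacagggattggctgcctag
IFIT1: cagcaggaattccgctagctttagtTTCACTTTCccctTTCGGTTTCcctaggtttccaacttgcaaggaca
IFITM1: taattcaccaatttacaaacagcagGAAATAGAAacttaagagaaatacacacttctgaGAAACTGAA
IFI27: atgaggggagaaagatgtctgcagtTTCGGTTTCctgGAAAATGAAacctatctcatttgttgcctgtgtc
CD274: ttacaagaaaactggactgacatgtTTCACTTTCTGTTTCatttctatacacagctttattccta
LGALS3BP: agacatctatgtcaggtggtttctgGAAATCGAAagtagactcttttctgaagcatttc
Among the stretches shown, LGALS3BP carries 1 match and fell, while the others carry 2 or 3 and rose. Whether the number of matches goes with the change was not tested over the effectors.

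**Figure D3:**
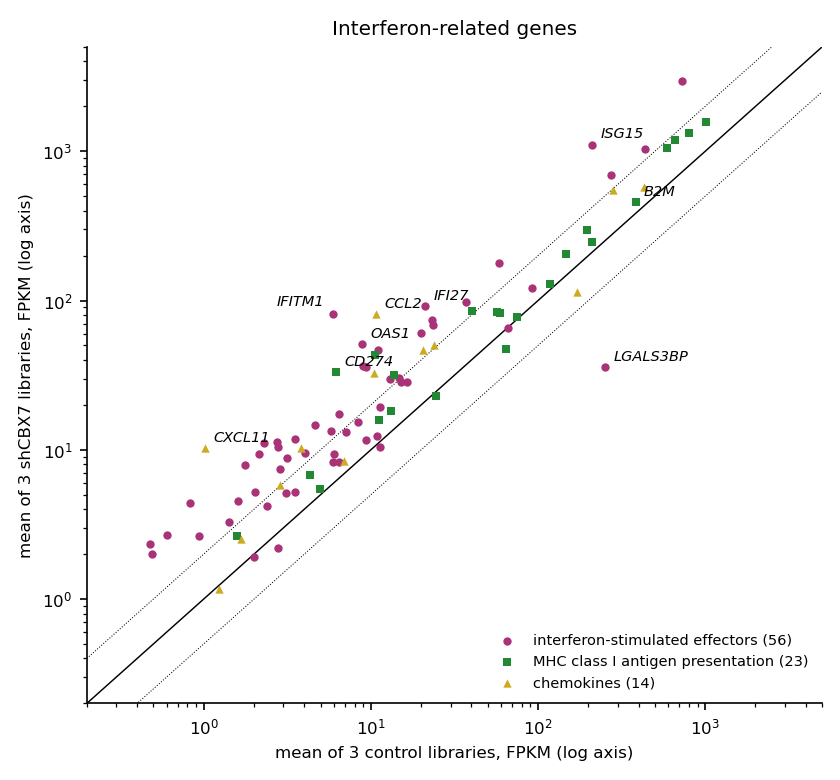
Mean level in control (horizontal) and shCBX7 libraries (vertical), in FPKM on log axes, for the tested members of 3 gene lists, with lines at equal level and at 2-fold. Nearly all points lie above the line of equal level, and LGALS3BP lies far below it.

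Most genes of antigen presentation, and many sensors of the response, rose as well. Of 23 tested genes of the list of MHC class I presentation, 18 were higher and 1, the peptide editor TAPBP (64.6 to 47.7 FPKM), was lower (median 0.49). That list also holds the checkpoint ligands CD274 and PDCD1LG2, and without them 16 of 21 were higher and 1 lower (median 0.48). The heavy chains HLA-B and HLA-C, which share sequence, rose, HLA-B from 659 ± 44 to 1196 ± 51 FPKM, and the peptide transporter TAP1 rose from 40.3 ± 3.1 to 85.3 ± 3.7 FPKM. CD274, which encodes the checkpoint ligand PD-L1, measured 5.85, 6.69 and 6.14 FPKM in the control libraries and 32.6, 35.5 and 31.9 FPKM after silencing, a 5.35-fold rise with no overlap (limma adjusted p = 6.13e-07), and its neighbour PDCD1LG2 (PD-L2) rose from 10.6 ± 0.80 to 43.2 ± 2.0 FPKM. Among 29 genes of interferon and double-stranded RNA sensing, 18 rose and 3 fell (median 0.29). The RNA sensors DDX58 (RIG-I, 6.70 to 25.1 FPKM) and IFIH1 (MDA5, 3.55 to 10.1 FPKM) rose, and so did IRF7 (2.77 to 14.3 FPKM), the factor that amplifies interferon genes, and the brake USP18 (7.59 to 17.9 FPKM). The DNA sensor CGAS (7.30 to 5.09 FPKM) and the RNA-editing enzyme ADAR (22.2 to 13.8 FPKM) fell, and IRF9 (0.714 to 0.988 FPKM), a part of ISGF3, did not pass.

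Chemokines rose in 12 of 14 tested members and fell in 1, CXCL5 (median 1.01). CCL7, a monocyte chemokine next to CCL2, measured 0, 0.126 and 0.0702 FPKM in the control libraries and 1.41, 1.74 and 1.63 FPKM after silencing. It reached the minimum only through its shCBX7 values, so it could only enter the count as a rise and adds no support to it. CXCL1 and CXCL2, which draw neutrophils, rose from 281 ± 13 to 547 ± 22 FPKM and from 10.4 ± 0.54 to 32.7 ± 2.3 FPKM, and CCL20 rose from 20.5 ± 1.2 to 46.9 ± 2.4 FPKM. CXCL8 rose less (428 to 580.2 FPKM), and CXCL5 fell from 171 ± 3.9 to 114 ± 2.8 FPKM. The NF-kB site was found on either strand in 1273 of 9623 promoters (13.2%) and in 7 of 10 chemokines with a promoter. CXCL1, CXCL2 and CXCL3 are shown because they are close copies that carry the same stretch and all rose. In each, the capitals hold 2 overlapping matches, 1 on each strand. They are CXCL1 at chr4:73869289-73869349 (plus strand), CXCL2 at chr4:74099238-74099298 and CXCL3 at chr4:74038733-74038793 (both minus strand).
CXCL1: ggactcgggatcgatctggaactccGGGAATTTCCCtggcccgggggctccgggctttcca
CXCL2: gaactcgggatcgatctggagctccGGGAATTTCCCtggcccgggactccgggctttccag
CXCL3: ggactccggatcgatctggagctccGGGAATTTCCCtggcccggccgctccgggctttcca
CXCL5 also holds a match and fell.

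NF-kB subunits and feedback genes rose in 13 and fell in 4 of 21 members (median 0.27). The inhibitors NFKBIA (78.5 to 138 FPKM) and TNFAIP3 (13.2 to 31.5 FPKM) and the adhesion molecule ICAM1 (53.6 to 127 FPKM) rose, and the subunit NFKB1 fell (9.03 to 5.95 FPKM). Interleukins, colony-stimulating factors and their receptors were mixed, 9 higher and 5 lower of 21. TNF (4.95 to 15.1 FPKM), CSF2 (183 to 386 FPKM) and IL7R (2.66 to 11.4 FPKM) rose, and IL11 (39.7 to 16.7 FPKM) and LIF (54.0 to 34.3 FPKM), both of the IL-6 family, fell. AP-1 and immediate early genes were 17 higher and 3 lower of 23 (median 0.52). JUN (136 to 196 FPKM), ATF3 (3.40 to 8.20 FPKM) and KLF6 (24.6 to 39.8 FPKM) rose. EGR1 went against the rest, with 3.02, 3.01 and 2.86 FPKM in the control libraries and 0.202, 0.421 and 0.232 FPKM after silencing (limma adjusted p = 8.55e-06), and FOS fell from a low level (1.249 to 0.728 FPKM).

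Growth factor signalling showed a rise of MAPK feedback genes beside mixed receptors. Of 16 tested genes of the MAPK feedback list 10 were higher and 1 was lower (median 0.49). The ERK phosphatases DUSP5 (67.0 to 150.01 FPKM) and DUSP6 (5.67 to 12.1 FPKM) and the stress kinase phosphatase DUSP10 (14.8 to 37.4 FPKM) rose. The member that fell was CCND1 (215 to 153 FPKM), a cyclin that the list also holds and not itself a feedback regulator. In the FGF family 4 of 13 tested members rose (30.8%) and 5 fell (38.5%), against 24.7% and 26.2% over all tested genes. FGFR4, the receptor gene with the largest fall of that list, measured 11.3, 9.48 and 10.0 FPKM in the control libraries and 4.81, 3.50 and 3.45 FPKM after silencing (limma adjusted p = 1.20e-04), without overlap. FGFR1, the highest in FPKM of FGFR1 to FGFR4, fell from 14.6 ± 0.57 to 10.8 ± 0.15 FPKM, and FGFR2 stayed under the minimum. Of the ligands, FGF1 measured 0.0795, 0.0724 and 0.149 FPKM in the control libraries and 1.27, 1.44 and 1.28 FPKM after silencing. FGF1 reached the minimum only through its shCBX7 values, so it could only enter the count as a rise. FGF5 rose from 2.01 ± 0.067 to 3.35 ± 0.19 FPKM, and FGF2 fell from 7.48 ± 0.50 to 4.73 ± 0.47 FPKM. FGFR3 had the lowest level of the tested receptors in both arms, in FPKM, which are scaled by length. ERBB family members and related genes were 5 higher (31.25%) and 4 lower (25%) of 16 (median -0.02), near the shares of all genes. The ligand HBEGF rose from 9.69 ± 1.2 to 32.4 ± 1.1 FPKM, and the receptors EGFR (13.7 to 9.80 FPKM) and ERBB2 (6.94 to 4.46 FPKM) fell. TGF-beta receptors, SMADs and targets were 13 higher and 4 lower of 27, with INHBA (17.2 to 36.8 FPKM) and TGFBR2 (45.1 to 68.2 FPKM) among the rises and ID1 (171 to 99.9 FPKM) among the falls.

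Genes of the cell surface and matrix rose more often than they fell. Matrix proteases and their inhibitors were 17 higher and 2 lower of 22 (median 0.46). The urokinase PLAU rose from 33.1 ± 1.5 to 89.3 ± 2.1 FPKM, its receptor PLAUR from 39.1 ± 1.9 to 61.1 ± 1.7 FPKM and the membrane protease MMP14 from 153 ± 7.2 to 256 ± 2.8 FPKM, while CTSB and ADAMTS1 fell. The fibronectin receptor subunit ITGA5 rose from 50.2 ± 1.2 to 111 ± 0.26 FPKM, in a list of 13 integrins with 6 higher and 1 lower. Of 30 matrix proteins, 13 rose, TNC (11.8 to 31.9 FPKM) and the laminin chain LAMB3 (59.97 to 128 FPKM) among them, and 8 fell, such as NID2 (12.3 to 6.50 FPKM). Cadherins and genes of the epithelial-mesenchymal switch were 8 higher (47.1%) and 5 lower (29.4%) of 17 (median 0.27). Over all tested genes the shares were 24.7% and 26.2%. The largest fall of that list, against the direction of most of its called members, was in CLDN2, a pore-forming claudin of the proximal tubule. CLDN2 measured 4.90, 5.26 and 6.01 FPKM in the control libraries and 0.928, 0.844 and 1.07 FPKM after silencing (limma adjusted p = 6.20e-06). Renal identity genes were 6 higher and 5 lower of 15 tested (30 listed). Among the falls were PAX8 (37.8 to 30.3 FPKM), the kidney cadherins CDH6 (13.4 to 7.47 FPKM) and CDH16 (1.01 to 0.306 FPKM) and CA12 (56.8 to 24.5 FPKM). Among the rises were the brush border enzymes MME (1.81 to 3.19 FPKM) and ANPEP (28.8 to 39.2 FPKM).

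Secreted peptides that act on vessels rose in 12 of 14 members (median 0.54). ADM, adrenomedullin, rose from 56.6 ± 2.2 to 147 ± 8.1 FPKM and ANGPTL4, an inhibitor of lipoprotein lipase, measured 23.6, 19.2 and 20.4 FPKM in the control libraries and 108, 96.7 and 100.03 FPKM after silencing (limma adjusted p = 1.86e-06). EDN2 was the member that fell (1.31 to 0.137 FPKM), next to a rise of EDN1 (3.71 to 27.8 FPKM). HIF subunits and hypoxia targets were 15 higher and 7 lower of 30. EPAS1 (18.7 to 20.1 FPKM) and VEGFA (45.9 to 48.9 FPKM) did not pass, HIF1A fell (54.5 to 45.8 FPKM), and the targets split, with P4HA2 (44.2 to 92.0 FPKM), ERO1A (13.9 to 31.3 FPKM) and NDRG1 (48.4 to 83.3 FPKM) higher and CA12 and SLC2A1 (298 to 177 FPKM) lower.

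Energy metabolism moved down in small steps. Glycolysis genes were 3 higher and 10 lower of 20 (median -0.19): the glucose transporter SLC2A1 fell while SLC2A3 rose (8.66 to 21.8 FPKM), and PGK1 fell from 205 ± 5.2 to 154 ± 2.1 FPKM. Of 24 citric acid cycle genes 1 rose and 12 fell (median -0.17). IDH2, the mitochondrial NADP-dependent isocitrate dehydrogenase, stood apart with 79.6, 74.7 and 74.8 FPKM in the control libraries and 13.9, 14.7 and 14.5 FPKM after silencing (limma log2 change -2.33, adjusted p = 2.25e-07), as did SDHD, an anchor of succinate dehydrogenase (21.8 to 5.89 FPKM). IDH1, its cytosolic counterpart, did not pass (36.0 to 37.1 FPKM). Nuclear genes of oxidative phosphorylation were 1 higher and 41 lower of 67 (median -0.28). The ATP synthase subunits ATP5F1B (414 to 239 FPKM) and ATP5F1A (37.8 to 23.5 FPKM) had the largest falls of that list. Of the 13 messages encoded by mitochondrial DNA, 10 were not called and 3 fell, MT-ND5 (519 to 389 FPKM), MT-ND6 and MT-CO1. The last 2 of these lost the call under other settings.

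The most uniform fall among the lists was in the cytosolic ribosome. Of 79 ribosomal protein genes, 72 were lower and 7 were not called (median -0.58). RPL5, an abundant member, fell from 229.6 ± 4.5 to 142 ± 4.9 FPKM. Larger falls were seen in RPSA (505 to 179 FPKM, -1.49) and RPL4 (295 to 132 FPKM, -1.15). RPL36A, RPLP1, RPS2, RPS10, RPS20 and RPS29 were among those that did not pass. Some members had far lower values than the rest, such as RPS10 (0.599 to 0.535 FPKM) and RPL36A (0.833 to 0.593 FPKM), and ribosomal proteins have many processed copies, so single values are less certain. Processed pseudogenes of ribosomal protein genes moved the same way, with 5 higher and 38 lower of 75 (median -0.49), against 33 higher and 80 lower of 352 other processed pseudogenes (median -0.09).

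Other machinery of protein production followed. Mitochondrial ribosomal proteins were 3 higher and 42 lower of 74 (median -0.27), with MRPL20 (36.4 to 16.03 FPKM) among the largest falls. Genes of ribosome assembly and the nucleolus were 3 higher and 22 lower of 29 (median -0.30). Nucleolin NCL fell from 109 ± 4.4 to 71.3 ± 1.7 FPKM and the largest subunit of RNA polymerase I, POLR1A, fell from 2.64 ± 0.13 to 1.07 ± 0.041 FPKM, whereas MYC (50.6 to 71.0 FPKM) and the nucleolar phosphoprotein NOLC1 (16.9 to 34.9 FPKM) rose. Translation factors were 5 higher and 21 lower of 41 (median -0.22), with EEF1B2 (187 to 117 FPKM) and EIF4G1 (44.9 to 28.3 FPKM) lower and the translation repressor EIF4EBP1 higher (201 to 282 FPKM). The proteasome was 2 higher and 13 lower of 31 (median -0.14). Spliceosomal snRNP proteins were 1 higher and 18 lower of 27 (median -0.24). SNRPC, the U1 snRNP protein that helps to recognise 5′ splice sites, measured 182, 168 and 181 FPKM in the control libraries and 29.4, 24.7 and 26.1 FPKM after silencing (limma log2 change -2.69, SE 0.069, adjusted p = 4.78e-07). The next largest fall of that list was SNRPE (66.7 to 27.8 FPKM, -1.24), and the other U1 proteins SNRPA (48.9 to 47.2 FPKM) and SNRNP70 (52.7 to 58.6 FPKM) did not pass.

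**Figure D4:**
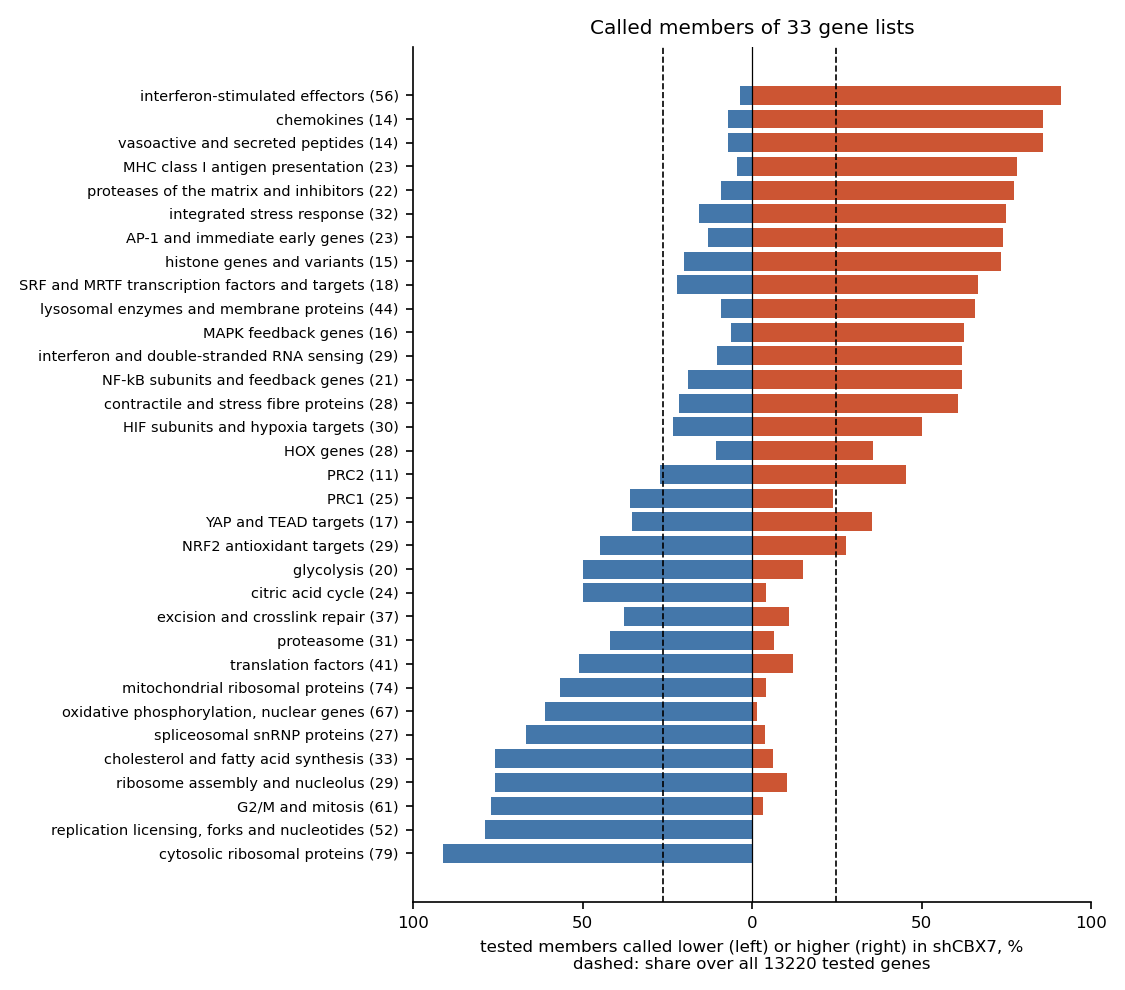
Share of the tested members of 33 gene lists that were called higher (right) or lower (left) in shCBX7, in percent, with the number tested in brackets and dashed lines at the shares over all 13220 genes, 24.7% higher and 26.2% lower. The bars run from interferon-stimulated effectors, 51 of 56 higher, to cytosolic ribosomal proteins, 72 of 79 lower.

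Cell cycle genes were lower as a group. Of 52 genes of replication licensing, forks and nucleotide supply, 41 fell and 11 were not called (median -0.40). The helicase subunit MCM6 fell from 24.5 ± 0.72 to 11.4 ± 0.33 FPKM, MCM2 from 26.7 ± 1.6 to 14.4 ± 1.1 FPKM and the maintenance methyltransferase DNMT1 from 14.4 ± 0.25 to 6.85 ± 0.31 FPKM. TK1, thymidine kinase, measured 200.3, 167 and 175 FPKM in the control libraries and 61.2, 58.7 and 63.1 FPKM after silencing, with no overlap (limma log2 change -1.55, adjusted p = 4.99e-06). Of 61 genes of G2/M and mitosis, 47 fell and 2 rose (median -0.40). The chromokinesin KIF4A fell from 30.5 ± 2.4 to 11.2 ± 0.39 FPKM, topoisomerase TOP2A from 51.3 ± 4.9 to 23.4 ± 0.91 FPKM, PLK1 from 43.5 ± 2.6 to 22.8 ± 0.99 FPKM and CCNB1 from 69.6 ± 0.98 to 40.5 ± 1.7 FPKM. MYBL2 (97.6 to 152 FPKM) and the spindle protein SKA1 (9.83 to 12.1 FPKM) were the members that rose, and BIRC5 (71.3 to 67.0 FPKM), AURKB (54.3 to 55.9 FPKM) and CENPA (42.1 to 44.4 FPKM) did not pass.

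The E2F site, searched as TTTCCCGC on both strands, was present in 263 of 9623 promoters (2.73%), in 11 of 45 replication genes with a promoter (24.4%) and in 1 of 52 mitotic genes. Of those 11, CDT1, CLSPN, LIG1, MCM3, MCM7, PCNA, RFC3, TYMS and UHRF1 fell, CDT1 with a call lost under 2 of the other settings, and GINS2 and GINS3 did not pass. They are represented by MCM3 at chr6:52284884-52284941, MCM7 at chr7:100101552-100101609 and PCNA at chr20:5126649-5126706 (all minus strand) and UHRF1 at chr19:4909462-4909500 (plus strand), with the site in capitals.
MCM3: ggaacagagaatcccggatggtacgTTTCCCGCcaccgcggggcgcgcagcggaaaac
MCM7: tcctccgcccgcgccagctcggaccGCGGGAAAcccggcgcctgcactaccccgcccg
PCNA: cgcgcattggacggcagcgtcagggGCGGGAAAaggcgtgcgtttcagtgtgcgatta
UHRF1: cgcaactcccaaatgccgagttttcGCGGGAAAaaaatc
MCM3 (52.96 to 41.9 FPKM), MCM7 (117 to 75.7 FPKM), PCNA (149 to 104 FPKM) and UHRF1 (20.9 to 11.6 FPKM) were lower in every shCBX7 library than in any control.

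Of the upstream regulators, CDKN1A, the CDK inhibitor p21, measured 51.0, 42.0 and 45.5 FPKM in the control libraries and 142, 136 and 140.2 FPKM after silencing, a 3.02-fold rise with no overlap (limma log2 change 1.58, SE 0.070, adjusted p = 4.37e-06). CDKN1B (30.5 to 41.2 FPKM) and CDKN2D (21.9 to 38.6 FPKM) rose, CDKN1C (11.4 to 8.47 FPKM), CDKN2C (35.1 to 26.6 FPKM) and CDKN3 (56.5 to 35.7 FPKM) fell, and CDKN2A and CDKN2B, the textbook Polycomb targets among them, were at or near 0 in every library. CDKN2A and CDKN2B were under the minimum and not tested, so their values cannot show whether Polycomb keeps them silent here. G1 cyclins, kinases, RB and E2F genes were 3 higher and 10 lower of 19, with E2F1 not passing (36.5 to 38.4 FPKM) and E2F2 (2.23 to 0.948 FPKM) and CCNE1 (6.30 to 3.87 FPKM) lower. LMNB1, a lamin of the nuclear envelope, measured 58.6, 58.3 and 61.1 FPKM in the control libraries and 15.8, 15.98 and 16.9 FPKM after silencing (limma log2 change -1.81, adjusted p = 4.78e-07), while LMNA, its A-type relative, rose by 0.16 with a call lost under 8 of the other settings. Histone genes and variants were 11 higher and 3 lower of 15 (median 0.50). H1F0, the linker histone H1.0 of slowly dividing cells, measured 12.3, 12.8 and 11.7 FPKM in the control libraries and 58.2, 59.5 and 62.2 FPKM after silencing (limma log2 change 2.20, adjusted p = 2.97e-07), and HIST1H2BK rose from 20.3 ± 2.8 to 51.7 ± 4.6 FPKM. Histone genes share sequence.

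Targets of p53 and death receptors were 14 higher and 8 lower of 30, and BCL2 family and caspase genes 16 higher and 4 lower of 30 (median 0.22). The killer ligand receptor TNFRSF10B rose from 32.0 ± 0.21 to 55.7 ± 0.59 FPKM, and the BH3-only genes PMAIP1 (NOXA, 54.8 to 114 FPKM) and BBC3 (PUMA, 5.72 to 14.0 FPKM) rose, while RRM2B, a ribonucleotide reductase subunit, fell (4.74 to 2.40 FPKM). MDM2 (0.703 to 0.755 FPKM) did not pass. The survival gene BCL2L1 (BCL-XL) fell from 50.3 ± 3.6 to 23.7 ± 0.75 FPKM, MCL1 rose from 56.4 ± 0.99 to 80.1 ± 1.3 FPKM and BCL2A1 rose from 7.29 ± 1.3 to 22.9 ± 2.7 FPKM. XIAP, an inhibitor of caspases, fell from 2.12 ± 0.090 to 1.13 ± 0.073 FPKM.

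Most genes of lipid synthesis fell and most lysosomal genes rose. Of 33 genes of cholesterol and fatty acid synthesis, 25 were lower and 2 higher (median -0.50). SCD, the desaturase that makes oleate, measured 108, 113 and 113 FPKM in the control libraries and 22.8, 21.8 and 23.4 FPKM after silencing (limma log2 change -2.25, adjusted p = 2.25e-07). ACLY, which supplies acetyl-CoA, fell from 87.7 ± 1.1 to 41.7 ± 0.86 FPKM, FASN from 10.6 ± 0.28 to 4.73 ± 0.41 FPKM and DHCR7 from 49.97 ± 2.9 to 22.0 ± 0.95 FPKM, and both master regulators fell, SREBF1 from 10.1 ± 0.70 to 5.73 ± 0.42 FPKM and SREBF2 from 30.3 ± 0.38 to 22.1 ± 0.28 FPKM. INSIG1, which holds SREBP in the endoplasmic reticulum, rose from 41.3 ± 2.3 to 76.1 ± 3.3 FPKM. The sterol element TCACNCCAC, searched on both strands, was in 1 of 27 of these promoters and in 1.03% of all. Of 44 lysosomal genes, 29 were higher and 4 lower (median 0.34), with the acid lipase LIPA (19.8 to 36.9 FPKM) and the regulator TFEB (3.35 to 5.79 FPKM) higher. PSAP, the precursor of the saposins that activate such enzymes, ran counter to them with 455, 408 and 425 FPKM in the control libraries and 82.7, 83.2 and 86.3 FPKM after silencing (limma log2 change -2.34, adjusted p = 2.30e-07).

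Stress programmes differed from each other. The integrated stress response, in which phosphorylated eIF2 slows translation and ATF4 drives rescue genes, was 24 higher and 5 lower of 32 (median 0.45). ATF4 rose from 279 ± 18 to 379 ± 9.9 FPKM, DDIT3 (CHOP) from 19.3 ± 1.0 to 56.0 ± 2.2 FPKM, the stress protein NUPR1 from 14.99 ± 1.1 to 44.5 ± 2.3 FPKM, the eIF2 phosphatase subunit PPP1R15A from 26.8 ± 1.5 to 62.0 ± 1.5 FPKM and the secreted factor GDF15 from 39.6 ± 4.9 to 112 ± 3.1 FPKM, while the amino acid transporters SLC7A5 (85.2 to 55.6 FPKM) and SLC1A5 (149 to 97.9 FPKM) fell. Chaperones of the endoplasmic reticulum and the unfolded protein response were 12 higher (50%) and 2 lower (8.33%) of 24 (median 0.16). Over all tested genes the shares were 24.7% and 26.2%. The summed level of the list was 2138 to 2190 FPKM in control and 2837 to 2894 FPKM in shCBX7 libraries. HSPA5 (BiP) did not pass (228 to 243 FPKM), and HYOU1 was 1 of the 2 that fell (26.1 to 11.9 FPKM). Cytosolic heat shock proteins were 6 higher and 10 lower of 21, HSP90AA1 (229.6 to 110.1 FPKM) and HSPA8 (322 to 193 FPKM) among the falls. NRF2 targets were 8 higher and 13 lower of 29: heme oxygenase HMOX1 rose from 42.8 ± 2.2 to 73.1 ± 2.0 FPKM. Of 4 metallothioneins MT1X rose (7.59 to 12.4 FPKM) and MT2A fell (747 to 679 FPKM), the latter with a change whose sign turned with quantile normalization.

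**Figure D5:**
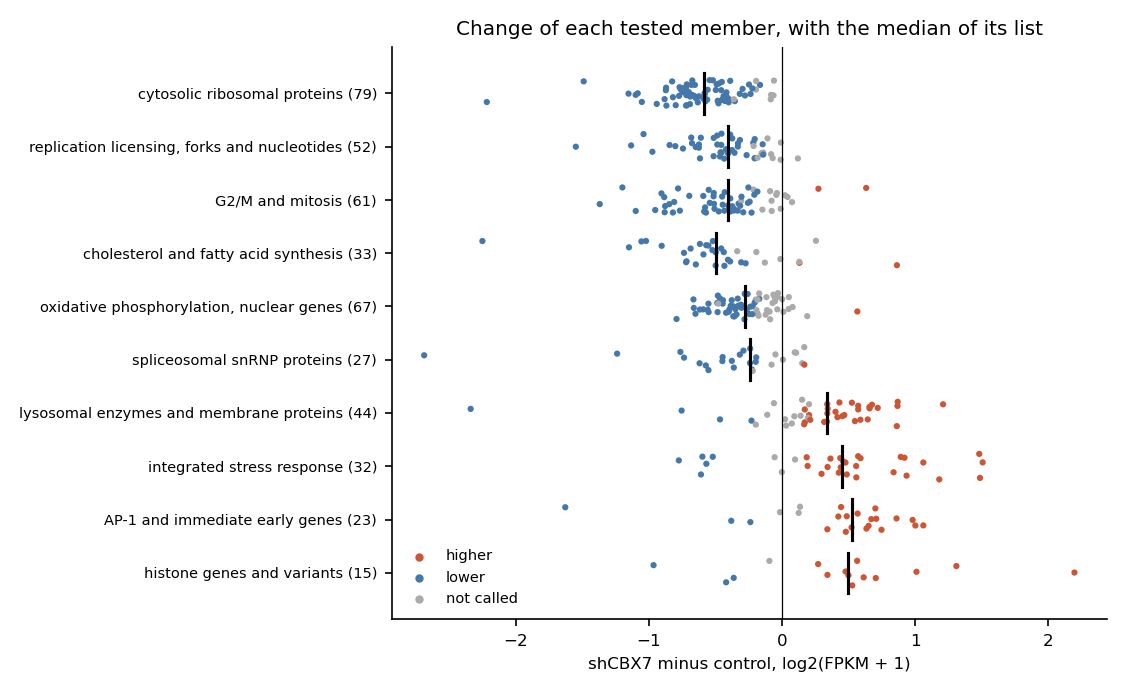
Change of each tested member of 10 gene lists on the log2(FPKM + 1) scale (horizontal), coloured by call, with a bar at the median of the list; vertical scatter within a list carries no value. SNRPC at -2.69, PSAP at -2.34 and SCD at -2.25 lie apart from the other members of their lists.

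Genes with textbook roles in the handling of cisplatin, which the series title names, were lower more often than higher. Genes of copper, platinum and drug transport and of glutathione were 2 higher (9.52%) and 9 lower (42.9%) of 21 (median -0.20). Over all tested genes 24.7% were higher and 26.2% lower. The copper importer SLC31A1 (13.8 to 12.8 FPKM) did not pass, LRRC8A, the core of the volume-regulated anion channel, rose (7.68 to 15.9 FPKM), and its partner LRRC8D fell (7.14 to 4.67 FPKM). GGCT, an enzyme of the glutathione cycle, fell from 37.9 ± 2.4 to 9.14 ± 0.15 FPKM. Excision and crosslink repair genes were 4 higher (10.8%) and 14 lower (37.8%) of 37, with a small median change (-0.10). The damage-binding subunit DDB1 fell from 18.9 ± 0.50 to 9.05 ± 0.16 FPKM and the Fanconi gene FANCG from 21.9 ± 0.84 to 10.5 ± 0.038 FPKM, and ERCC1 (13.7 to 15.1 FPKM) did not pass. No cisplatin-treated library was analysed here.

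Of 25 tested PRC1 genes (27 listed) 6 were higher (24.0%) and 9 lower (36.0%), with a median of -0.03, against 24.7% and 26.2% and a median of -0.01 over all tested genes. Other chromobox subunits rose, CBX2 from 4.27 ± 0.43 to 6.09 ± 0.32 FPKM and CBX8 from 4.17 ± 0.23 to 5.34 ± 0.52 FPKM, while CBX6 fell from 13.2 ± 0.31 to 9.15 ± 0.28 FPKM. In FPKM, CBX7 had a lower level than CBX2, CBX6 and CBX8 in both arms. The catalytic subunits RING1 (26.4 to 25.8 FPKM) and RNF2 (6.45 to 5.68 FPKM) and the PCGF subunit BMI1 (7.63 to 6.90 FPKM) did not pass. L3MBTL2, of a variant PRC1 complex, measured 5.06, 4.49 and 4.95 FPKM in the control libraries and 2.02, 1.91 and 1.96 FPKM after silencing and fell (limma log2 change -0.98, adjusted p = 1.79e-05). Of 11 PRC2 genes 5 were higher, the EZH2 homologue EZH1 (2.18 to 3.33 FPKM), RBBP4 (11.0 to 18.4 FPKM), JARID2 (3.40 to 5.58 FPKM), MTF2 and PHF1, and 3 lower, SUZ12 (5.99 to 4.68 FPKM), EED and PHF19. The EED call was lost under 7 of the other settings.

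HOX genes, the classic Polycomb targets, were 10 higher and 3 lower of 28 tested (39 listed, median 0.23). HOXA9 measured 18.8, 19.8 and 21.3 FPKM in the control libraries and 39.4, 39.1 and 35.9 FPKM after silencing and HOXB7 19.99, 17.9 and 16.7 FPKM in the control libraries and 38.6, 35.1 and 34.1 FPKM after silencing, both with no overlap (limma adjusted p = 2.49e-05 and 5.49e-05). HOXC6 rose from 1.73 ± 0.12 to 3.86 ± 0.091 FPKM and HOXD8 from 7.19 ± 0.22 to 10.8 ± 0.58 FPKM, so that rises occurred in all 4 clusters. HOXA3 (10.5 to 5.65 FPKM), HOXA2 (5.08 to 3.75 FPKM) and HOXC4 (1.38 to 0.878 FPKM) fell. Other developmental transcription factors were 9 higher (25%) and 5 lower (13.9%) of 36 tested, while 67 were listed (median 0.04). Over all tested genes 24.7% were higher and 26.2% lower, so the share of rises was near that of all genes. SOX9 (4.67 to 8.15 FPKM) and FOXC2 (5.32 to 8.21 FPKM) were among the rises and WT1 (3.76 to 2.65 FPKM) and TFAP2A (1.57 to 0.949 FPKM) among the falls. DNA and histone methylation enzymes were 7 higher (25%) and 9 lower (32.1%) of 28, also near the shares of all genes. DNMT1 was lower and the de novo methyltransferase DNMT3B higher (12.2 to 19.3 FPKM). The circadian clock had 1 higher (7.69%) and 4 lower (30.8%) of 13, with PER1 falling from 2.47 ± 0.15 to 1.03 ± 0.089 FPKM. Polyamine synthesis had 5 higher and 2 lower of 10, with ODC1 rising from 38.7 ± 0.34 to 59.6 ± 1.2 FPKM. Lamins and nuclear envelope genes were 4 higher and 3 lower of 11.

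Several of the largest changes lay outside these groups. CD69, a surface lectin best known from activated lymphocytes, measured 0.761, 0.539 and 0.813 FPKM in the control libraries and 9.92, 11.8 and 10.8 FPKM after silencing, 15.4 times the control mean, in cells whose PTPRC was at 0. ARHGDIB, best known from blood cells, rose from 9.06 ± 0.57 to 61.5 ± 2.1 FPKM, SPOCD1 from 3.16 ± 0.30 to 24.7 ± 0.92 FPKM, the transcriptional cofactor LBH from 5.81 ± 0.55 to 34.6 ± 0.53 FPKM and PPP1R3B, which targets a phosphatase to glycogen, from 1.91 ± 0.20 to 12.2 ± 0.90 FPKM. NEURL3 measured 0.840, 0.612 and 1.16 FPKM in the control libraries and 10.5, 9.34 and 9.28 FPKM after silencing and SIGLEC15, a sialic acid receptor of myeloid cells, 6.34, 5.88 and 6.75 FPKM in the control libraries and 32.9, 29.6 and 28.9 FPKM after silencing. Each of these genes had no overlap between arms. HECTD3, a ubiquitin ligase, measured 19.7, 16.01 and 17.4 FPKM in the control libraries and 2.53, 2.53 and 2.64 FPKM after silencing, and B4GALT1, a galactosyltransferase of the Golgi, fell from 26.5 ± 0.65 to 4.74 ± 0.58 FPKM. The tetraspanin CD81 fell from 52.1 ± 2.5 to 13.4 ± 0.42 FPKM, the sorting nexin SNX12 from 67.4 ± 3.2 to 16.8 ± 0.76 FPKM, the glucosyltransferase ALG8 from 22.3 ± 0.48 to 5.44 ± 0.51 FPKM, the penta-EF-hand protein PEF1 from 63.6 ± 5.5 to 17.4 ± 0.31 FPKM and FAM189B from 10.7 ± 0.89 to 2.30 ± 0.41 FPKM. Limma adjusted p-values of the 40 genes with the largest rises and falls are at most 1.12e-05.

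Kinds of gene differed in their share of calls. Long intergenic RNAs were higher in 152 and lower in 44 of 471 (median 0.16), and antisense RNAs in 121 and 52 of 542, against 2850 and 3180 of 11077 protein-coding genes. Their level was low, with a median of 1.21 FPKM for long intergenic RNAs, but also when genes were split by level into 5 equal classes and only the lowest class was read, 21.3% of long intergenic and antisense RNAs were higher and 7.52% lower, against 15.4% and 13.5% of protein-coding genes. C2H2 zinc finger factors, many of which repress repeats, were higher in 134 and lower in 31 of 381 (median 0.15), ETS factors in 10 and 3 of 19, and bZIP factors, which include AP-1 and ATF4, in 18 and 7 of 36. Genes of the X chromosome were lower more often (32.1%) than higher (17.6%) among 433, against 26.2% and 24.7% over all tested genes. In 4 genes, chosen after their values were seen, every control had 0 reads and every shCBX7 library at least 10: ACTA2-AS1, LINC01345, IGSF21 and AC022784.1, none above 33 reads in a library. No gene showed the opposite.

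The response of 786-O differed from that of 5637, in which shCBX7 libraries were compared with that line's own controls. A limma fit with an interaction term over all 12 libraries called 6808 of 12777 genes (53.3%) as changed differently between the lines. The tables of the lines were made separately, so levels set across them are less certain than differences within a line. CBX7 fell more in 786-O, by -0.40 against -0.18 on the log2 scale (difference -0.22, limma adjusted p = 0.0268), though this difference lost its call without any 1 of 5 libraries (-0.26 to -0.19 over the left-out libraries). FGFR3 rose by 2.46 in 5637 and 0.31 in 786-O (difference -2.15, limma adjusted p = 3.69e-08). ACTB changed by -3.27 in 786-O and 0.10 in 5637, and ACTA2 by 4.90 and 0.06 (limma adjusted p = 5.08e-12 for each difference). As ACTB and ACTA2 had the largest fall and rise in 786-O, a difference from 5637 was likely beforehand.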

How the data were processed

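RNA-seq was measured in 12 libraries, 3 per arm in 786-O and in 5637. RNA was isolated with a RNeasy kit and libraries were made with a strand-marking NEBNext kit, per the labels' protocols. Values were deposited by the authors as FPKM per gene. No aligner, counter, strand setting or FPKM total is given in the sources used here. The submitters' processing notes name the build mm10, although all 58735 gene identifiers with their starts and ends match human GENCODE 29 (GRCh38). The table also lists gene lengths and coordinates, per the file headers, and 27 symbols had turned into dates.

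Every FPKM value was a whole number of reads (within 0.01) once gene length and a library constant were taken out, and these reads gave the depths and an alternative fit. Columns were assigned to arms by name, and libraries within an arm count as n = 3. Genes averaging 0.5 FPKM or more over the 6 libraries were tested with limma 3.58.1 (R 4.3.3) on log2(FPKM + 1), with a mean-variance trend and Benjamini-Hochberg adjustment over all 13220 genes at 0.05. The difference between lines was an interaction term over 12 libraries and 12777 genes. Single genes were also tested with an exact two-sided permutation test. The fit was also run on simulated reads in which a small share of the genes was changed by known folds. Many more genes were called in the real libraries, so that run does not measure the error of the calls reported here. Genes were named as follows: CBX7, EZH2 and FGFR3; the 20 largest rises and 20 largest falls in log2 among protein-coding genes that averaged 1 FPKM or more and had no overlap, with 10 more each way by fold of means; up to 6 members per list with the smallest p; and other members whose role a sentence describes. Some of the genes that this rule picks are not reported here. The members and the 62 gene lists were chosen with earlier results of these data known. Of the list names, 3 had no match in the table. Alternatives changed the pseudocount, the minimum, the scaling, the trend, the libraries used and the replicate block.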

Additional observations from a re-analysis of the deposited data

Results flagged for a closer look

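The change after CBX7 silencing differed between 786-O and 5637 for each of 6 genes for which the interaction term was read in a limma fit over 12 libraries. The same fit called 6808 of 12777 genes (53.3%), so a call by itself is common. The difference in log2 change, 786-O minus 5637, was -0.22 for CBX7 (adjusted p = 0.0268), 0.24 for EZH2 (adjusted p = 0.0176) and -2.15 for FGFR3 (adjusted p = 3.69e-08). It was -3.37 for ACTB, -2.84 for ACTG1 and 4.83 for ACTA2 (adjusted p = 5.08e-12 for each). These actins had the largest falls and the largest rise in 786-O, so a difference from 5637 was likely beforehand. The difference in CBX7 lost its call in some of the fits with 1 library left out. In 5637 the mean of EZH2 went from 39.5 to 30.3 FPKM, that of ACTG1 from 1557 to 1217 FPKM and that of ACTA2 from 1.14 to 1.23 FPKM.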

How the results depend on the processing

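The number of genes called, 6736, was 6723 with the replicate number as a block, 7247 with voom on recovered reads, 6868 with quantile normalization, 6100 of 27777 without a minimum and 5704 to 6747 with 1 library left out. Counts of called genes at least 2-fold higher (273) and lower (191) were 533 and 382 with a pseudocount of 0.1, 582 and 390 with voom, and 263 to 289 and 188 to 205 with 1 library left out. Median centring gave 3364 higher and 3353 lower calls. FGFR3 was not called without a minimum (0.31, limma adjusted p = 0.123), with quantile normalization (0.28, 0.0589) or with the replicate block (0.31, 0.0828), and ran from 0.23 to 0.40 with 1 library left out. EZH2 ran from -0.21 to -0.10, and was called without control library 1. The difference between lines in CBX7 ran from -0.26 to -0.19 (limma adjusted p from 0.0142 to 0.0656), and lost its call without 786-O control 2, 786-O shCBX7 2, 5637 control 1, 5637 control 2 or 5637 shCBX7 3. MT2A, lower in the fit reported, was at 0.048 with quantile normalization (limma adjusted p = 0.361). The cause of these changes was not tested. CBX7 and FGFR3 have no value at a minimum of 2 FPKM. Libraries with the same number correlated at 0.083, 0.077 and 0.057 in their deviations from the arm means, under the 0.1 set for pairing, although each correlated best with its own number, a hint from the data and not from the design. Of 1496 listed or named genes tested, 1053 were called, and 898 of these in every alternative that gave them a value. Values of low genes rest on few reads, and changes near the minimum are the least certain.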
